A study of Homo sapiens with 6 samples.

Results

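Epithelial-mesenchymal transition (EMT) is the switch by which epithelial cells give up their cell junctions and take on features of motile, fibroblast-like cells. Expression of 10 genes of this switch was examined in SUM159, a human breast cancer line kept in culture: the transcriptional repressors ZEB1, ZEB2, SNAI1, SNAI2 and TWIST1, the cadherins CDH1 and CDH2, the filament protein VIM, and the epithelial factors ESRP1 and GRHL2. The genes were chosen by name, with earlier results of these data known. Every probe set annotated to 1 of them alone was taken, which gave 21 of the 54613 probe sets tested, and 10 of 19775 genes with a probe set of their own. No further probe set was shared between a member and another gene. There were 3 arrays of control cells, transduced with the empty pLVX-puro lentiviral vector, and 3 arrays of cells transduced with pLVX-puro-hSCGB3A1 to express SCGB3A1, a small secreted protein of the secretoglobin family. All cells were selected with 2 μg/ml puromycin for 7 days, seeded at 12500 cells/ml and grown for 5 days as oncospheres, which are clusters of cells in suspension, and 100 ng of total RNA per sample was labelled. The labels call the arrays biological replicates but do not say whether each came from its own transduction, so p-values reflect array-to-array spread that may be technical. The study asked how breast cancer cells respond to SCGB3A1, which it had found induced in lung endothelial cells near metastases.

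The repressors bind short E-box motifs in DNA and shut down epithelial genes, above all CDH1, which encodes E-cadherin, the adhesion protein of epithelial junctions. As E-cadherin is lost, cells commonly gain N-cadherin (CDH2) and vimentin (VIM). GRHL2, a transcription factor, and ESRP1, a splicing factor, hold cells in the epithelial state, and GRHL2 and ZEB1 are known to repress each other. The microRNAs of the miR-200 family and miR-205 target ZEB1 and ZEB2 transcripts, and ZEB1 in turn represses the miR-200 genes.

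These microRNAs are shown because their seeds group them and because the transcript around MIR205 is among the pathway genes given further on. The arrays do not measure mature microRNAs. The mature sequences (RefSeq, GRCh38.p14) are written with the seed, bases 2 to 8, in capitals. Of the miR-200 family, miR-200b, miR-200c and miR-429 share 1 seed, miR-141 and miR-200a share another that differs from it at a single base, and miR-205 has an unrelated one.
hsa-miR-200b-3p: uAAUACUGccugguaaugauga
hsa-miR-200c-3p: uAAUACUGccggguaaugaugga
hsa-miR-429: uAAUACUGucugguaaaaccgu
hsa-miR-141-3p: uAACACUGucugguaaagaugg
hsa-miR-200a-3p: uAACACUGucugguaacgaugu
hsa-miR-205-5p: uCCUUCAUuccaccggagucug

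Of the 21 member probe sets, only 1, of ZEB1, had groups of arrays that did not overlap. Over all probe sets, non-overlap was found with SCGB3A1 lower for 5.25% and with SCGB3A1 higher for 5.95%. The other probe sets of ZEB1 overlapped. ZEB1 is shown with the 250 bases before its first annotated start in RefSeq (GRCh38.p14, chr10:31318167-31318416, plus strand). Capitals mark the E-box CAGGTG, a motif that ZEB and SNAI proteins bind, which begins at position -57 from that start.
ZEB1 promoter: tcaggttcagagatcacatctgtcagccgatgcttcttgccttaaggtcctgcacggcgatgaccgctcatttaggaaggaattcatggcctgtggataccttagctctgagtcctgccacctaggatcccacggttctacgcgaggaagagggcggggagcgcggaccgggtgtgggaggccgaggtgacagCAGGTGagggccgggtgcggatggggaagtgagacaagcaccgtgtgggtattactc
The motif was searched on both strands (CAGGTG, or CACCTG on the other strand). Of 34943 promoter windows of 250 bases, 17.5% held it. Windows were listed for 4 members, ZEB1, ZEB2, CDH2 and VIM, and 2 of their 11 windows held it, both among the 7 of ZEB1. A match describes letters only, and the arrays do not measure binding.

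Array values are robust multiarray average (RMA) values on the log2 scale, where 1 unit is a doubling of signal. The median over all probe sets was 6.91. Probe sets differ in how strongly they bind, so a level places a probe set on the array and does not rank transcripts between genes. Each gene is given by its lead probe set, the one with the highest mean over the 6 arrays, and by its other probe sets beside it. As a gauge of the signal floor, 24 genes restricted to other organs, such as liver, pancreas and testis, read 6.04 to 7.98 in control cells, with a median of 6.63. The highest was SFTPC, a lung surfactant protein, and the next was NPPA, a heart peptide (7.29). A level between these lies inside the gauge by SFTPC alone and does not show absence. Correlations between control replicate 2 and the other arrays were 0.990 to 0.993, lower than the best correlations of the rest (0.995 to 0.996). For several members and named genes the difference is given without that array too. The labelled cell type was checked with marker genes. KRT8 and KRT18, keratins of simple epithelium, read 10.83 and 11.44 in control cells, while EPCAM, an epithelial adhesion protein, read 6.19, within the floor gauge. Luminal markers lay above the gauge for 4 of 10 and basal markers for 5 of 6. Of the 5 blood markers, 0 lay above the gauge, with PTPRC the highest at 7.78. Of the 6 endothelial markers, 1 lay above it (PECAM1, 8.28). Fibroblast genes lay above it for 7 of 8. In bulk RNA, fewer cells of a kind and less RNA per cell cannot be told apart.

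At baseline, most mesenchymal members gave clear signal in SUM159 oncospheres and the epithelial members did not. VIM, CDH2, SNAI2, ZEB1 and TWIST1 lay well above the floor gauge in all 6 arrays, and CDH1, ESRP1, GRHL2 and SNAI1 lay inside it in all 6. ZEB2 sat at its upper edge. This layout was the same in the arrays labelled SCGB3A1. Of the 21 member probe sets, 0 passed adjusted p 0.05 (limma, Benjamini-Hochberg over all 54613 probe sets), where 0.0183% of all probe sets passed. At an unadjusted p under 0.05 there was 1, the lead probe set of ZEB1, where 6.20% of all probe sets passed. By the criteria of the study's SCGB3A1 signature (an absolute log2 fold change over 0.5 with a nominal p under 0.05 and a false discovery rate under 0.25), 0 members passed, against 0.0311% of all probe sets.

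**Figure D1:**
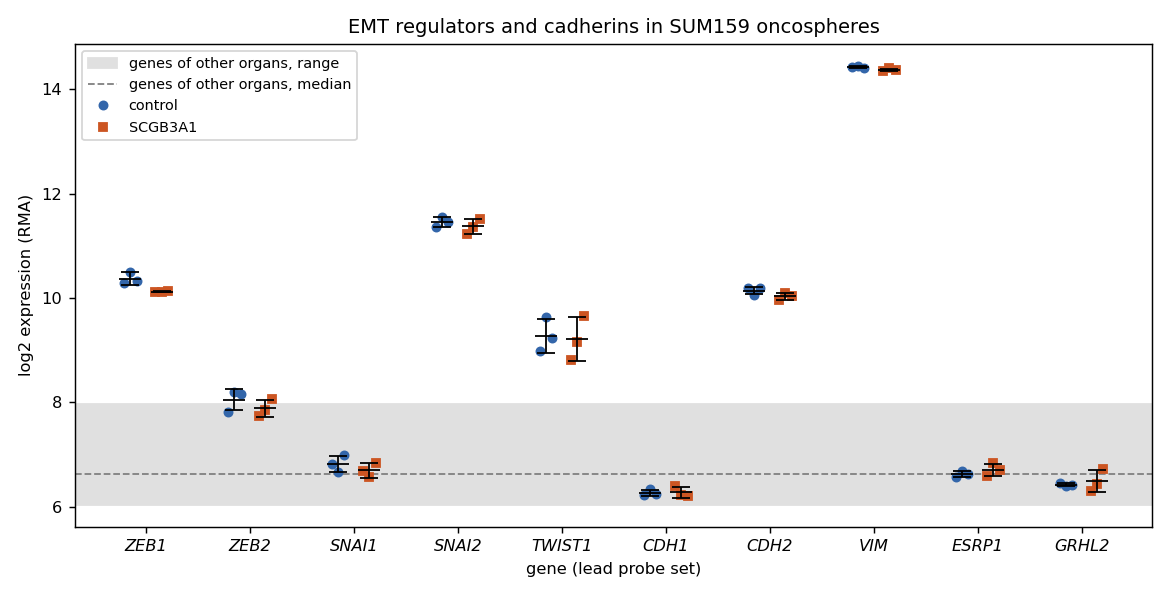
Log2 expression (vertical axis) of the lead probe set of each gene (horizontal axis) in control arrays (blue circles) and arrays labelled SCGB3A1 (orange squares), with black bars for the mean and SD (n = 3). The grey band is the range of genes of other organs, 6.04 to 7.98, which holds CDH1, SNAI1, ESRP1 and GRHL2, while VIM reads 14.42 in control.

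On these arrays SCGB3A1 itself gave no check of the labels. The study reports that qPCR established expression of its factors in transduced, puromycin-selected cancer cells, SUM159 among them. That measurement is not part of these arrays. The only probe set of SCGB3A1 read 6.80, 6.89 and 7.05 in control replicates 1, 2 and 3. In the arrays labelled SCGB3A1 it read 6.60, 6.92 and 6.71, with overlapping groups near the floor. It is not known here whether this probe set reads the vector's insert at all, so directions are those of the arrays as labelled.

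ZEB1, a zinc finger repressor of CDH1 and of the miR-200 genes, had the largest difference among the members. Its lead probe set (212764_at) read 10.28, 10.51 and 10.32 in control replicates 1, 2 and 3. In the arrays labelled SCGB3A1 it read 10.12, 10.11 and 10.13. All 3 of these lay below the lowest control, and they spread far less than the controls did (SD 0.0100 against 0.12, n = 3 each). Non-overlap with SCGB3A1 lower was found for 5.25% of all probe sets, and among the members for this 1 probe set of 21. The log2 fold change was -0.25 ± 0.08 (SE), a fold of 0.842 with a 95% interval from 0.748 to 0.947, and it did not pass (limma adjusted p = 0.72). Without control replicate 2, the highest of the controls, it was -0.18.

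The other probe sets of ZEB1 did not all point the same way. The probe set 212758_s_at, at a control level of 9.79 ± 0.08 (SD, n = 3), read -0.04 with a 95% interval from -0.20 to 0.13. The probe set 210875_s_at read 8.35, 8.86 and 8.49 in control and 8.30, 8.39 and 8.40 in the arrays labelled SCGB3A1. Its log2 fold change of -0.20 rested on the high value of control replicate 2, without which it was -0.05. The probe set 239952_at lay near the array median (control 6.73) and read 0.04. The mean of all 4 probe sets gave -0.11 (limma adjusted p = 0.70). Which transcripts of ZEB1 each probe set reads was not analysed here.

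**Figure D2:**
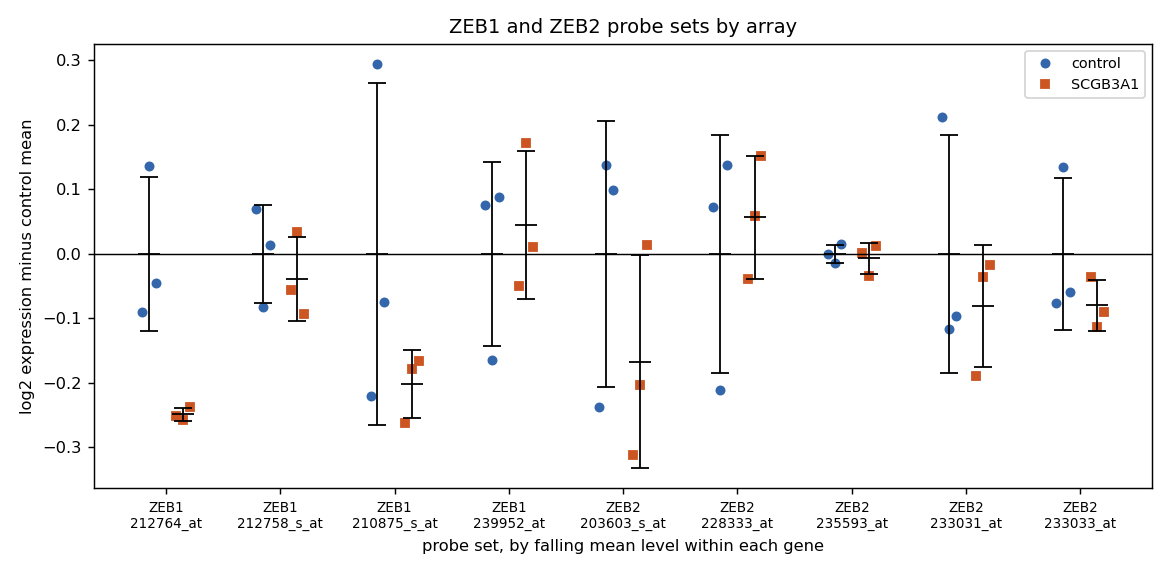
Log2 expression minus the control mean (vertical axis) of the 4 probe sets of ZEB1 and the 5 of ZEB2 (horizontal axis, by falling level) in control arrays (blue circles) and arrays labelled SCGB3A1 (orange squares), with bars for mean and SD (n = 3). The groups separate at 212764_at alone, where the means differ by -0.25, and control replicate 2 is the highest point at both 212764_at and 210875_s_at.

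Arrays were also searched for genes whose lead probe set followed that of ZEB1, by the root mean square difference of mean-centred log2 values over the 6 arrays. Among 19774 other genes the closest were TMEM150A (difference 0.026), SOX12, a SOX family transcription factor (0.027), and DCK, deoxycytidine kinase (0.032). Their log2 fold changes were -0.22, -0.22 and -0.28. Values near that of ZEB1 follow from the choice, which used the same 6 arrays. This is a description over 6 arrays, in which control replicate 2 is the highest value of all 4 genes.

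ZEB2, the close relative of ZEB1, read 7.82, 8.19 and 8.15 in control by its lead probe set (203603_s_at) and 7.74, 7.85 and 8.07 in the arrays labelled SCGB3A1. The groups overlapped, and the log2 fold change was -0.17 ± 0.11 (SE; 95% interval -0.41 to 0.07, limma adjusted p = 0.86). Without control replicate 2 it was -0.098, and without SCGB3A1 replicate 3 it was -0.26. The mean of all 5 probe sets gave -0.055. A second probe set (228333_at, control 7.62, inside the floor gauge) read 0.06, opposite in sign to the lead. The remaining 3 had control levels of 6.54, 6.50 and 6.20, also inside the gauge, and read between -0.08 and -0.01.

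SNAI2, or Slug, the repressor of the SNAI family that basal breast cells commonly express, was high by its only probe set, with 97.8% of all probe sets lower in control. It read 11.37, 11.56 and 11.45 in control and 11.23, 11.36 and 11.52 in the arrays labelled SCGB3A1. The groups overlapped and the difference was -0.09 ± 0.09 (SE; 95% interval -0.28 to 0.10). Without control replicate 2 it was -0.040, and without SCGB3A1 replicate 3 it was -0.16. SNAI1, or Snail, often an early and short-lived inducer of the switch, gave 6.82, 6.66 and 6.99 in control and 6.68, 6.57 and 6.85 in the arrays labelled SCGB3A1. These values lie at the floor, and the difference of -0.12 (95% interval -0.34 to 0.09) was within the spread of the arrays. Without control replicate 2 it was -0.20. RMA draws values at the floor together, so a fall of SNAI1 could not be seen there.

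TWIST1, a helix-loop-helix factor that also acts in the neural crest, varied most between arrays. It read 8.98, 9.63 and 9.23 in control and 8.82, 9.16 and 9.65 in the arrays labelled SCGB3A1. Both groups ran from low to high, with a range of 0.83 over the 6 arrays, against 0.09 for the lead probe set of VIM. The log2 fold change was -0.07 ± 0.19 (SE), and its 95% interval from -0.48 to 0.34 was the widest of the 21. Its sign turned when 1 array was left out, to 0.10 without control replicate 2 and to 0.12 without SCGB3A1 replicate 1. Without SCGB3A1 replicate 3 the log2 fold change was -0.29.

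CDH1, the gene of E-cadherin, was at the floor by both of its probe sets. The lead (201130_s_at) read 6.22, 6.34 and 6.25 in control and 6.40, 6.23 and 6.21 in the arrays labelled SCGB3A1. The log2 fold change was 0.01 ± 0.08 (SE; 95% interval -0.16 to 0.18), and the other probe set (201131_s_at) read 0.03 (-0.16 to 0.22). Only 14.8% and 11.9% of all probe sets had a lower control level than these, so no gain of signal above the gauge was seen in any array.

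CDH2, the gene of N-cadherin, was measured by 2 probe sets well above the floor. The lead (203440_at) read 10.19, 10.06 and 10.19 in control and 9.95, 10.10 and 10.03 in the arrays labelled SCGB3A1. The groups overlapped by control replicate 2 and SCGB3A1 replicate 2, and the difference was -0.11 ± 0.08 (SE; 95% interval -0.28 to 0.05, limma adjusted p = 0.86). The other probe set (203441_s_at, control 9.07) read -0.10 (-0.29 to 0.09), close to the lead, but -0.046 without control replicate 2, where the lead read -0.16.

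VIM, the intermediate filament protein of mesenchymal cells, read 14.43, 14.44 and 14.40 in control and 14.35, 14.40 and 14.37 in the arrays labelled SCGB3A1 by its lead probe set (201426_s_at). In control, 99.99% of all probe sets were lower. The difference was -0.05 ± 0.07 (SE; 95% interval -0.20 to 0.10). The highest value of the whole table was 14.66, so VIM lay near the top of the scale and its interval is no bound on a gain. The second probe set (1555938_x_at) had a control level of 7.33 and read -0.0013 (-0.23 to 0.22).

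ESRP1, an epithelial splicing factor, and GRHL2, an epithelial transcription factor, were at the floor. The lead probe set of ESRP1 (219121_s_at) read 6.58, 6.68 and 6.63 in control and 6.60, 6.83 and 6.71 in the arrays labelled SCGB3A1. The log2 fold change was 0.08 ± 0.08 (SE; 95% interval -0.09 to 0.26). Its other probe set (225846_at) read 0.02. GRHL2 read 6.46, 6.40 and 6.43 in control and 6.31, 6.44 and 6.72 in the arrays labelled SCGB3A1, and its difference of 0.06 (95% interval -0.15 to 0.28) turned to -0.05 without SCGB3A1 replicate 3. Neither gene left the floor gauge in any array.

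Over the members as a whole, differences were small and mostly below 0. Of the 10 lead probe sets, 7 had a negative log2 fold change, with a median of -0.08, against 45.7% negative and a median of 0.01 over the lead probe sets of all genes. The 7 are the repressors, CDH2 and VIM, and the 3 positive values belong to CDH1, ESRP1 and GRHL2, which lie at the floor. Over all 21 probe sets, 14 were negative and 7 positive, against 49.0% negative over all tested probe sets. Probe sets of the same gene are not independent. SCGB3A1 replicate 1 held the lowest value for 6 of the 10 lead probe sets and control replicate 2 the highest for 4, so single arrays weigh on this count, and their part in it was not tested. The 95% intervals of the 21 probe sets ran from -0.48 to 0.34.

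**Figure D3:**
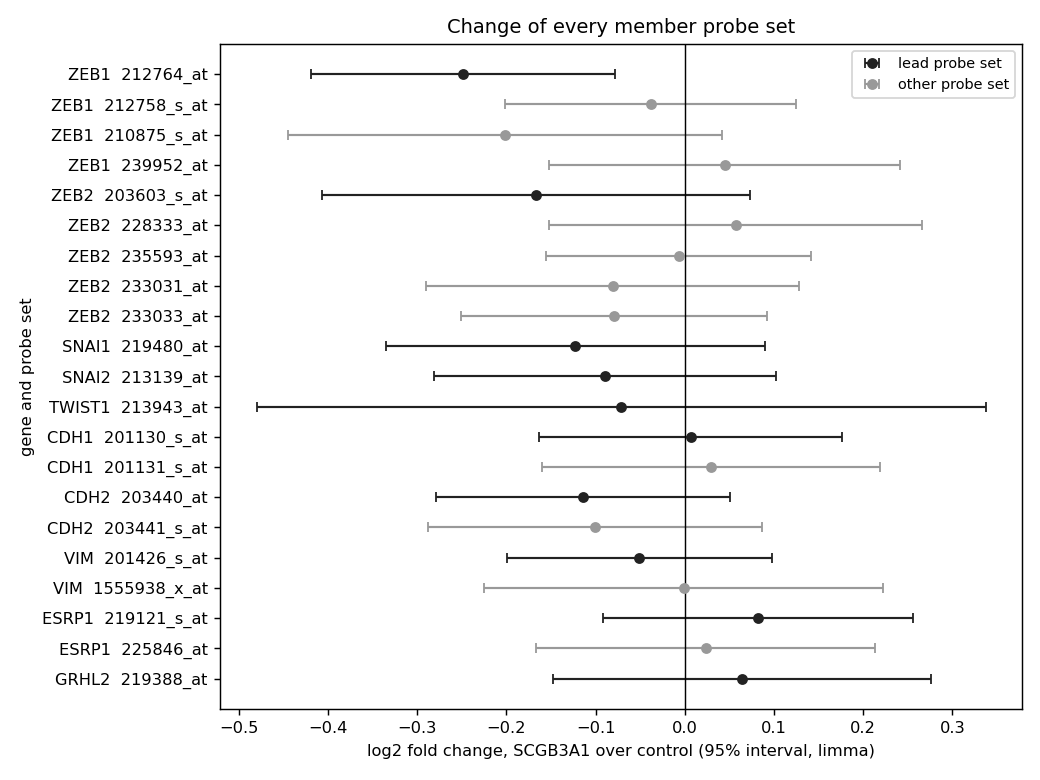
Log2 fold change of the arrays labelled SCGB3A1 over control (horizontal axis, points) with limma 95% intervals (bars) for each of the 21 probe sets (vertical axis), black for lead and grey for other probe sets. The interval of 1 probe set, ZEB1 212764_at (-0.42 to -0.08), leaves out 0, and TWIST1 has the widest.

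Further genes of the switch were taken from lists, also chosen with earlier results of these data known, each gene by its lead probe set. Among 18 other EMT factors, 0 passed adjusted p 0.05 (0.0303% of all lead probe sets did), 0 had an unadjusted p under 0.05 and the median log2 fold change was -0.01. HMGA2, a chromatin protein (-0.17), SNAI3 (-0.15) and TCF12, an E protein (-0.11), had the smallest p-values. With TCF12 the 3 arrays labelled SCGB3A1 lay below the controls, as for 5.25% of all probe sets. The mean of all probe sets of TCF12 was only -0.0043, and that of HMGA2 was -0.046. Of 13 other epithelial factors, 0 passed, and 4 were higher at an unadjusted p under 0.05, a level that 3.93% of all lead probe sets reached upward. OVOL1, a repressor of the mesenchymal state, read 0.32 ± 0.10 (SE), KLF5, a basal epithelial factor, 0.22 ± 0.07, and EHF, an ETS factor, 0.22 ± 0.07 (limma adjusted p = 0.72 to 0.74). OVOL1 and EHF had control levels of 6.74 and 6.55, inside the floor gauge, while KLF5 was at 9.06. The fourth, named here after its value was seen, was CEBPA (0.24). The median of this list was 0.07, and it was -0.01 without dim probe sets and 0.20 without the _x_at and _s_at probe sets, which can cross-hybridize. Means of all probe sets of each gene gave 0.15, 0.05 and 0.04 for OVOL1, KLF5 and EHF.

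Other cadherins and catenins (20 genes, median 0.03) held 0 that passed. At an unadjusted p under 0.05, 1 was higher and 1 was lower. Of all lead probe sets, 3.93% reached that level upward and 2.89% downward. CDH3, the gene of P-cadherin, a cadherin of basal epithelium, had the smallest p. It read 10.06 ± 0.06 (SD, n = 3) in control and 10.37 ± 0.06 in the arrays labelled SCGB3A1. The difference was 0.31 ± 0.07 (SE; limma adjusted p = 0.51), and its groups did not overlap, with SCGB3A1 higher, as for 5.95% of all probe sets. CDH6, a cadherin of kidney and neural crest, read -0.27 ± 0.10, and CTNNBIP1, an inhibitor of beta-catenin, 0.27 ± 0.13, with overlapping groups in both. Without control replicate 2, CTNNBIP1 read 0.17.

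Epithelial junction and polarity genes (27, median -0.0038) had 0 past the threshold. DSP, the desmosomal linker desmoplakin, read 9.92 ± 0.01 (SD, n = 3) in control and 10.37 ± 0.09 in the arrays labelled SCGB3A1. The difference was 0.45 ± 0.07 (SE; limma adjusted p = 0.14). An intensity trend in the variance gave a limma adjusted p of 0.036, and no other alternative fit passed. Array weights gave 0.051, a replicate block 0.31, and the omission of 1 array 0.20 to 0.91. TJP3, a tight junction scaffold, read 0.20 at a control level of 6.60, and PARD6B, a polarity protein, -0.34 at 7.16. Means of all probe sets of each gave 0.12 and -0.074. SPINT2, a protease inhibitor named after its value was seen, also had an unadjusted p under 0.05 (log2 fold change 0.23). In all, 3 of the 27 were higher and 1 was lower at that level. Of all lead probe sets, 3.93% reached it upward and 2.89% downward. Only 7 of the 27 lay above the floor gauge, and 20 did not.

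Mesenchymal structural genes (29, median -0.04) lay above the gauge for 26, and 0 passed. The 3 of smallest p were named. PDGFRB, a growth factor receptor, read 0.26, POSTN, the matrix protein periostin, 0.21, and COL1A1, a collagen chain, -0.21, or -0.095 as the mean of all its probe sets. The groups did not overlap for any of these, as for 5.95% of all probe sets with SCGB3A1 higher and 5.25% with SCGB3A1 lower, and the adjusted p was 0.73 to 0.78 by limma. In all, 2 had positive and 2 negative values at an unadjusted p under 0.05, the latter being COL1A1 and, named after its value was seen, the gelatinase MMP2 (-0.17). Of all lead probe sets, 3.93% reached that level upward and 2.89% downward.

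TGFB pathway genes, which act upstream of the repressors (17, median -0.03), had 0 past the threshold and 3 lower at an unadjusted p under 0.05, a level that 2.89% of all lead probe sets reached downward. SKI, a corepressor of SMAD proteins, read -0.36 ± 0.10 (SE), TGFBR1, a receptor kinase, -0.25 ± 0.08, and SMAD7, an inhibitor of the pathway, -0.19 ± 0.08 (limma adjusted p = 0.70 to 0.78). Their groups did not overlap, as for 5.25% of all probe sets with SCGB3A1 lower. Means of all probe sets gave -0.22 for SKI and -0.094 for TGFBR1. The median of the list was -0.069 without control replicate 2. Partners and corepressors of SNAI1 and ZEB1 (19, median -0.05) held CTBP1, a ZEB1 corepressor (0.21), HDAC1, a histone deacetylase (0.13), and FBXO11, a ubiquitin ligase subunit that acts on SNAI1 (-0.14), and 0 passed. The median of the partners was 0.01 without control replicate 2. Genes spliced by or beside ESRP1 (13, median -0.04) held CD44 (-0.16), QKI, a splicing factor (-0.09), and RBM24 (-0.12), with 0 past the threshold. CD44 read -0.082 without control replicate 2, and means of all probe sets gave -0.040 for CD44 and -0.015 for QKI. These probe sets read 3' ends, so splice forms were not analysed here.

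Of 7 genes of the miR-200 and miR-205 transcripts, 2 had a probe set of their own. MIR205 rose by 0.70 ± 0.09 (SE; limma adjusted p = 0.047), and MIR205HG, its host gene, read 0.34 ± 0.09 (adjusted p = 0.68 by limma). Their control levels, 7.68 and 6.68, lie inside the floor gauge, the first by SFTPC alone. In the arrays labelled SCGB3A1 they averaged 8.38, above the gauge's top of 7.98, and 7.02, inside it. The MIR205 call was lost with each array left out in turn, at log2 fold changes of 0.60 to 0.77. Its probe set may read the host transcript and not the microRNA whose seed is shown above. Of 6 measured basal epithelial markers, the keratin KRT15 alone passed (0.97; limma adjusted p = 0.0030), where 0.0303% of all lead probe sets passed. KRT5 and KRT14 each read 0.56, EGFR -0.24, ITGA6 -0.05 and ITGB4 0.03. At an unadjusted p under 0.05, 3 of the 6 were higher (KRT5, KRT14 and KRT15) and 1 was lower (EGFR). Of all lead probe sets, 3.93% reached that level upward and 2.89% downward. The summed level of the 6, on the log2 scale, was 12.95 to 13.14 in control and 13.40 to 13.51 in the arrays labelled SCGB3A1, and KRT5 had the highest level among them. Of 8 fibroblast markers 0 passed. At an unadjusted p under 0.05, beside the same shares of all lead probe sets, 3 had positive values, LUM (0.52), DCN (0.40) and PDGFRB (0.26). With a negative value there was 1, COL1A1 (-0.21; limma adjusted p = 0.32 to 0.78 over these 4). The summed level of the 8 was 15.03 to 15.14 in control and 15.02 to 15.11 in the arrays labelled SCGB3A1. COL3A1 and COL1A1, at control levels of 14.18 and 13.64, lie far above LUM and DCN at 8.04 and 8.49. Endothelial markers summed to 9.55 to 9.62 and 9.47 to 9.64, and blood markers to 9.43 to 9.50 and 9.43 to 9.54. The part of these in any member's value was not tested.

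**Figure D4:**
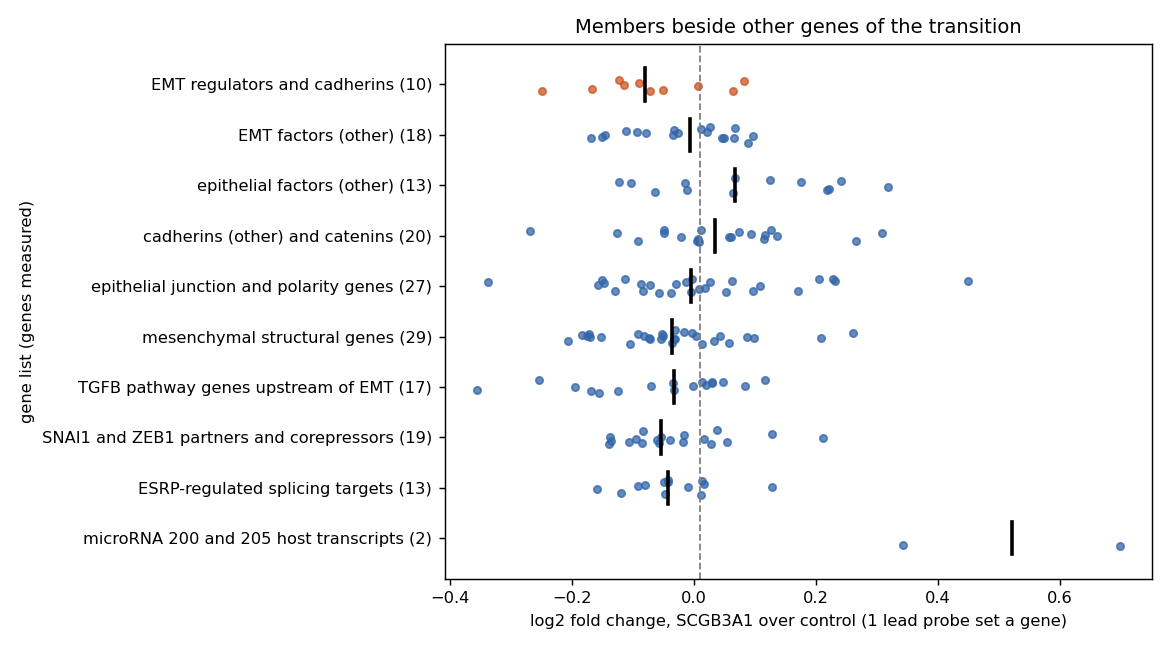
Log2 fold change of the arrays labelled SCGB3A1 over control (horizontal axis, 1 lead probe set a gene) for the members (orange points) and 9 lists of other genes of the switch (blue points, number measured in brackets), with black bars for medians and a dashed line at the median of all genes, 0.01. The members have a median of -0.08, and MIR205 lies farthest right at 0.70.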

How the data were processed

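The authors hybridised each sample to its own Affymetrix Human Genome U133 Plus array and normalized the scanner files by RMA (background correction, quantile normalization, probe set summary). Deposited values are log2. Quantile normalization hides changes of total RNA, and RMA compresses low values. The number of arrays limits the precision, and no detection calls were used here. Of 54675 probe sets, 62 manufacturer controls were set aside. Gene names come from the platform annotation held by GEO and were checked by identifier against RefSeq (GRCh38.p14), with 0 symbols changed. A single symbol was given for 41091 probe sets, several for 1801 and none for 11721. Genes without a probe set of their own were not matched.

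All 54613 probe sets were fitted with limma 3.58.1 in R 4.3.3 (lmFit, eBayes; two-sided; Benjamini-Hochberg), since the study's methods name an empirical Bayes test. On data simulated with these variances (54613 probe sets), the fit called 51 of 100 true changes of 0.5 and 87 of 100 of size 1, and 4 of its 142 calls were false. The fit to the real data made only 10 calls. With fewer calls the Benjamini-Hochberg cutoff on p is stricter, so the simulated shares overstate how often such changes would be called here.

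The members and lists were chosen with earlier results of these data known, and lists carry no set test. Named genes were all members, up to 3 genes of each list with the smallest p, and the 3 closest to ZEB1. Alternatives were array centring, a variance trend, a replicate block, array weights, omission of each array, filters on dim (mean at or under the median) and cross-hybridizing probe sets, other thresholds and means of all probe sets of a gene.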

Additional observations from a re-analysis of the deposited data

How the results depend on the processing

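Under every planned fit, 0 member probe sets passed adjusted p 0.05, and the smallest adjusted p of any was 0.49 (limma, ZEB1, without SCGB3A1 replicate 3). The signature criteria of the study also gave 0, and an unadjusted p under 0.05 gave 1. The variance trend, the replicate block and the probe set filters leave a fold as it is by construction. With 1 array left out, TWIST1 ran from -0.29 to 0.12, CDH1 from -0.053 to 0.040 and GRHL2 from -0.051 to 0.16, crossing 0, while ZEB1 ran from -0.29 to -0.18, ZEB2 from -0.29 to -0.095, SNAI1 from -0.20 to -0.041, SNAI2 from -0.16 to -0.020, CDH2 from -0.16 to -0.076, VIM from -0.064 to -0.040 and ESRP1 from 0.021 to 0.14. Other probe sets that crossed 0 were ZEB1 239952_at (-0.038 to 0.092), ZEB2 228333_at (-0.048 to 0.13), ZEB2 235593_at (-0.016 to 0.0068), ZEB2 233031_at (-0.14 to 0.025), CDH1 201131_s_at (-0.023 to 0.12), VIM 1555938_x_at (-0.10 to 0.11) and ESRP1 225846_at (-0.073 to 0.076). With array weights ZEB2 228333_at was -0.0037 and ESRP1 225846_at -0.0059. The cause was not tested. The filter on dim probe sets leaves no value for members at the floor.

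Replicate numbers did not pair the samples: deviations of same-numbered arrays correlated at 0.145, -0.144 and -0.087. With the replicate block, ZEB1 had limma adjusted p = 0.84, 0 member probe sets passed, and calls over all probe sets fell from 10 to 4. They were 19 with a variance trend, 16 with array weights, 6 without dim probe sets, and 1 to 6 with an array left out. MIR205 was lost with the block (limma adjusted p = 0.13), without dim probe sets (0.061) and with any 1 array left out. It passed with array centring (0.045), a variance trend (0.020), array weights (0.015) and without cross-hybridizing probe sets (0.038).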
